A study of Mus musculus with 16 samples.

Results

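The genes described are the TNF receptors and the adaptors, ubiquitin ligases and inhibitors that bind next to them. These 10 genes were chosen by name for their place in the pathway, with earlier results of these data known. They are *Tnfrsf1a*, *Tnfrsf1b*, *Tradd*, *Ripk1*, *Traf1*, *Traf2*, *Traf3*, *Birc2*, *Birc3* and *Cflar*. All 10 were found among the 55414 gene identifiers that were counted, and all 10 passed the filter on low counts in every comparison. RNA sequencing was performed in 16 cultures of mouse chondrocytes, in 4 groups of 4. Control (wild type) cells were exposed to vehicle (PBS) or to 50 ng/ml of TNFα, each during 6 h, and cells heterozygous for the *Notch2*tm1.1Ecan allele were exposed to the same treatments. This allele places a stop codon before the PEST domain of NOTCH2, so that a truncated and stable protein is made in every cell that expresses *Notch2*, and it is referred to here as the *Notch2* mutant. Chondrocyte-enriched cells came from the epiphyses of newborn mice on a C57BL/6 background, males and females pooled, and the controls were littermates. The submitters' labels describe removal of serum for the TNFα cultures only, whereas the study's legend describes serum-free conditions for both treatments. Serum and TNFα cannot be told apart if the labels hold. The labels call the 4 samples of a group biological replicates and do not say whether they came from separate litters, so that the p-values measure the spread between these cultures.

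TNFα binds TNF receptor 1, the product of *Tnfrsf1a*, which most cells carry, and TNF receptor 2, the product of *Tnfrsf1b*, which has a narrower distribution. Receptor 1 has a death domain that recruits TRADD and the kinase RIPK1, and TRADD brings in TRAF2 with the ubiquitin ligases cIAP1 (*Birc2*) and cIAP2 (*Birc3*). Ubiquitin chains placed on RIPK1 then recruit the kinases that activate NF-κB, and cFLIP (*Cflar*) restrains caspase-8 when the complex turns to cell death. Receptor 2 has no death domain and binds TRAF2 directly, with TRAF1 as a partner. TRAF3, together with TRAF2 and the cIAPs, marks the kinase NIK for destruction and so holds the noncanonical NF-κB pathway in check. *Birc3*, *Traf1*, *Traf2* and *Cflar* are widely used as NF-κB target genes, and in cartilage TNFα is known for loss of matrix gene expression and for the induction of proteases and cytokines.

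The genes lie on 8 chromosomes of GRCm39, and the only close neighbours are *Birc2* (chr9:7818227-7837120) and *Birc3* (chr9:7845790-7873229), both on the minus strand and 8670 bases apart. *Traf1* (chr2:34831762-34851837) and *Traf2* (chr2:25406097-25436987) share a chromosome and the minus strand. The others are *Tnfrsf1a* (chr6:125325566-125339632), *Tnfrsf1b* (chr4:144938938-144973477), *Tradd* (chr8:105984883-105996354), *Ripk1* (chr13:34186141-34221130), *Traf3* (chr12:111132776-111233589) and *Cflar* (chr1:58750321-58798047). Exons of 3 of the 10 overlapped those of other genes. *Tnfrsf1a* shared 19 bases with *Plekhg6* and *Tradd* shared 67 bases with *Hsf4* and *Fbxl8*, all on the opposite strand. *Ripk1* shared 752 bases with *Serpinb6a* on the opposite strand and Gm17084 on its own strand. The strand setting of the counting is not given in the sources used here, so that reads in those stretches cannot be assigned with certainty.

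Promoter windows of 300 bases, from 250 before to 50 after the annotated start, were at hand for 9 of the 10 genes, in 11 windows (RefSeq, GRCm38.p6). The NF-κB consensus, searched on both strands, was found in 1 of these 11 windows (9.09%), against 1480 of all 32851 windows of that length (4.51%). The 3 windows below are shown because *Traf1* and *Birc3* had the largest responses to TNFα, and because *Traf3* held the only match. The match is in capitals and lies on the plus strand from -10 to -1 relative to the start. The other two windows hold no match and therefore no capitals, which says only that these letters are absent from these stretches. The windows are *Traf3*, chr12:111166120-111166419 on the plus strand, *Birc3*, chr9:7873121-7873420 on the minus strand, and *Traf1*, chr2:34961723-34962022 on the minus strand, each printed 5′ to 3′.
Traf3: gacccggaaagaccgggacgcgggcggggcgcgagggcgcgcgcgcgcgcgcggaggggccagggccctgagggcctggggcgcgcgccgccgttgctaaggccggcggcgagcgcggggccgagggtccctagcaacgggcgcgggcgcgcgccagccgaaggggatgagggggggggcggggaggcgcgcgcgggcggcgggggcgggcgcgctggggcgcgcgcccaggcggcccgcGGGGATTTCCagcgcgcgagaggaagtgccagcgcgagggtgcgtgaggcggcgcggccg
Birc3: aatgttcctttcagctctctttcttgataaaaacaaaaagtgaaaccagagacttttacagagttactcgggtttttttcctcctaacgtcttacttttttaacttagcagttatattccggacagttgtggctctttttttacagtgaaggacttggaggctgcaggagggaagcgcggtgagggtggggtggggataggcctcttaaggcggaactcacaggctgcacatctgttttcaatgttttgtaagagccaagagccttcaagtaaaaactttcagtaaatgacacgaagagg
Traf1: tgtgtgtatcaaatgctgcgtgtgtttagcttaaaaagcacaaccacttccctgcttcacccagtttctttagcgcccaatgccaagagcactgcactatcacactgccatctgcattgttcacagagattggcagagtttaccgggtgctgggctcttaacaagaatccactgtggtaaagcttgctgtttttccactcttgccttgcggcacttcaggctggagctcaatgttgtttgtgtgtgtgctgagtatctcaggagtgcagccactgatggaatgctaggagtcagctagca

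Libraries held between 3439726 and 44237300 counts assigned to genes, with a median of 17062419. The shallowest was *Notch2* mutant TNFα replicate 4 and the deepest *Notch2* mutant vehicle replicate 4. The 2 control libraries numbered 4 stood apart from the rest of their groups. On the first principal component, which held 78.6% of the variance of 13431 genes, the value was -14.8 for control vehicle replicate 4 and between -58.8 and -56.4 for the remaining 7 vehicle libraries. For control TNFα replicate 4 the value was 40.9, against 52.5 to 56.3 in the remaining 7 TNFα libraries. *Icam1*, an adhesion molecule induced by TNFα, was at 439 CPM (counts scaled to the size of each library) in control vehicle replicate 4 and at 34.4 to 40.4 CPM in the other control vehicle libraries. The TNFα response of each of the 10 genes in control cells is therefore given with and without these libraries. Both measures that set them apart themselves follow TNFα, so that leaving them out tends to enlarge a response and lower its p-value. Values without them are a description and no independent evidence of a response. On the second component (6.86% of the variance) the shallow mutant TNFα replicate 4 was at 33.4, and the other mutant TNFα libraries were at 11.3 to 12.2. Leaving out that shallow library changed no call of the 10 genes. The *Notch* target *Heyl* was higher in mutant cells with vehicle (log2 fold change 3.04, adjusted p = 6.25e-07) and with TNFα (2.46, adjusted p = 0.000144 by edgeR's quasi-likelihood test, Benjamini-Hochberg). *Heyl* had only 15 reads over the control vehicle and 20 over the control TNFα libraries. Of 5 genes of a *Notch* list that holds *Heyl*, *Hes1*, *Hey1*, *Hey2* and the mutated *Notch2* itself, 3 were higher with vehicle and 2 with TNFα. Over all genes the shares were 6.19% and 5.63%. With TNFα, *Hey1* was at 2.59 CPM in control and 2.58 CPM in mutant cells. All 11 markers of chondrocytes on a fixed list were detected in every group, with summed levels of 49625 to 53449 CPM in control vehicle, 31039 to 35965 in mutant vehicle, 35732 to 42454 in control TNFα and 19539 to 22087 in mutant TNFα libraries. Most of these sums was *Col2a1*. Of 10 genes of an NF-κB response list, TNFα raised 9 in control and 10 in mutant cells, against 23.3% and 22.6% of all genes.

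TNFα moved nearly all of these genes at the RNA level. In control cells 8 of the 10 rose, 1 fell and *Ripk1* did not pass the test, and in *Notch2* mutant cells 9 rose and 1 fell. A gene was called at an adjusted p under 0.05 by edgeR's quasi-likelihood test, and over all genes tested 44.2% were called in control cells (23.3% higher, 20.9% lower) and 44.5% in mutant cells (22.6% higher, 21.9% lower). With a log2 fold change of 1 or more asked for as well, 4 of the 10 rose in control cells, against 8.47% of all genes, and the same 4 rose in mutant cells, against 9.2% of all genes. These were *Traf1*, *Birc3*, *Birc2* and *Traf2*. The median log2 fold change of the 10 genes was 0.89 in control and 0.95 in mutant cells, and that of all genes tested was 0.04 and 0.03. Groups of TNFα and vehicle libraries did not overlap for 9 of the 10 genes in either genotype, against 41.8% of all genes in control and 40.3% in mutant cells. The control and the mutant comparison share no library.

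**Figure D1:**
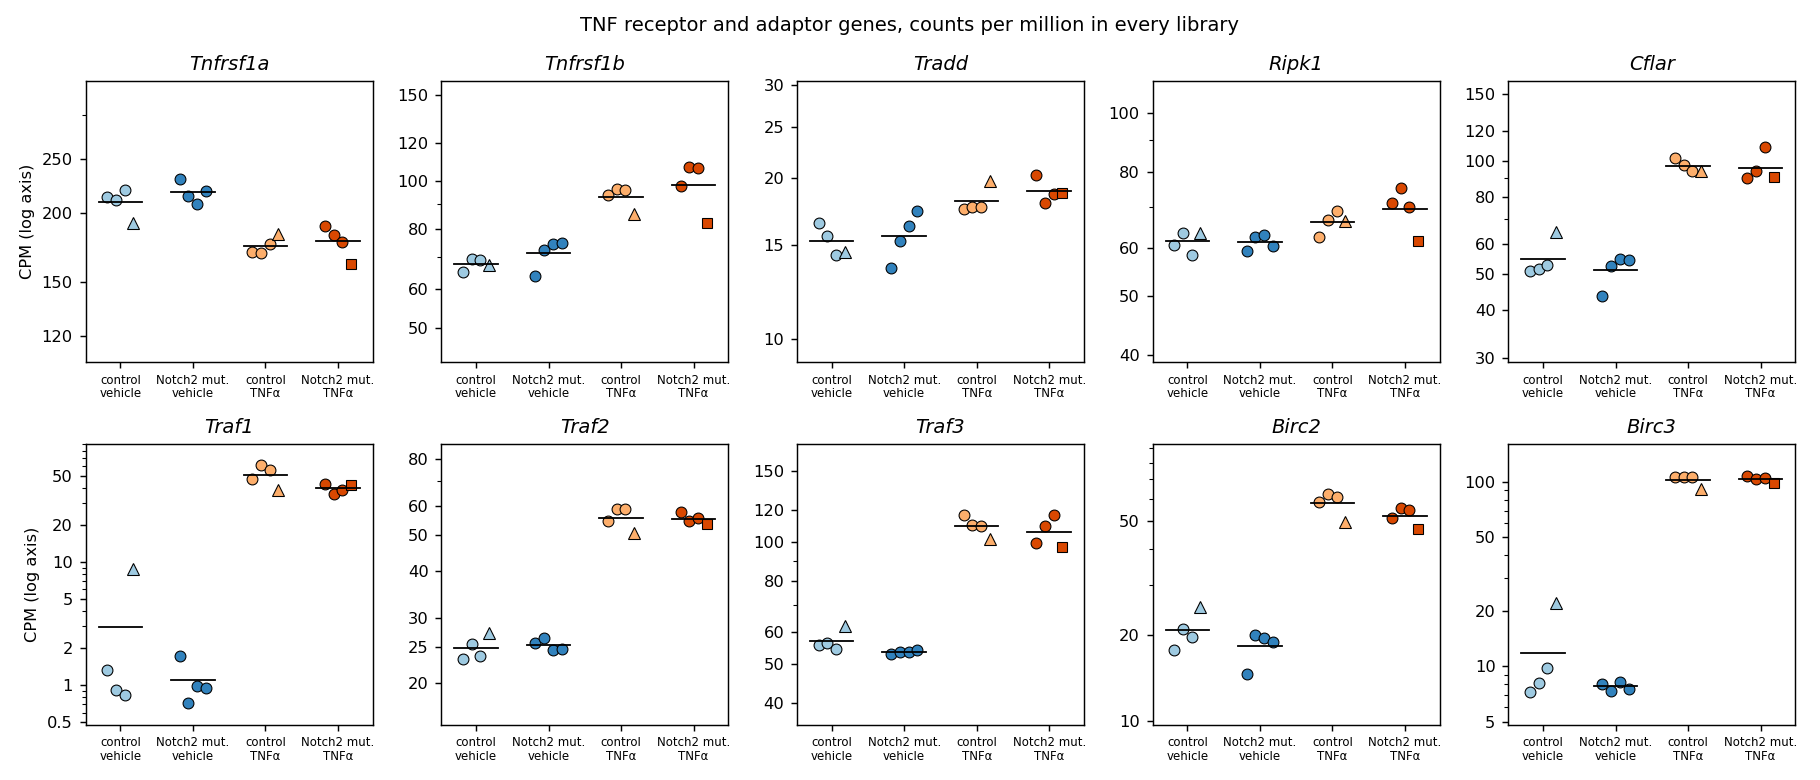
CPM (log axis) of the 10 genes in every library, by group, with the group mean as a line. Triangles mark the control libraries numbered 4 and the square the shallow mutant TNFα replicate 4; *Traf1* shows the widest step, from 0.72 to 8.69 CPM with vehicle to 35.6 to 60.7 CPM with TNFα, and *Tnfrsf1a* the only fall.

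The 2 receptors moved in opposite directions. *Tnfrsf1a* was at 214, 211, 220 and 192 CPM in control vehicle libraries and at 170, 169, 176 and 183 CPM with TNFα. Mutant cells held 230, 214, 208 and 219 CPM with vehicle and 189, 182, 177 and 162 CPM with TNFα. Each vehicle library was above each TNFα library of its genotype, and the closest pair was that of the control libraries numbered 4. The log2 fold change was -0.25 (SE 0.05, adjusted p = 0.000229) in control and -0.29 (SE 0.06, adjusted p = 0.000344) in mutant cells, and without the 2 control libraries numbered 4 it was -0.32. *Tnfrsf1b* was at 65.2, 69.3, 69.1 and 67.5 CPM in control vehicle libraries and rose to 93.8, 96.3, 96.2 and 85.8 CPM. The mutant values rose from 63.9, 72.2, 74.4 and 74.8 CPM to 98.0, 107, 106 and 81.9 CPM, the lowest value with TNFα being that of the shallow library. These were increases of 1.38-fold (log2 0.46, SE 0.05, adjusted p = 2.62e-07) and 1.40-fold (log2 0.48, SE 0.08, adjusted p = 6.33e-06), with no overlap of the groups, and without the control libraries numbered 4 the log2 fold change in control cells was 0.50.

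*Tradd* and *Ripk1* had small log2 fold changes. *Tradd*, which links receptor 1 to TRAF2, was at 14.4 to 16.5 CPM in control vehicle and 17.5 to 19.8 CPM in control TNFα libraries, and at 13.6 to 17.4 and 18.0 to 20.3 CPM in the mutant. Its log2 fold change was 0.26 (SE 0.09, adjusted p = 0.0168) in control and 0.27 (SE 0.10, adjusted p = 0.0236) in mutant cells. The call in control cells was lost without the 2 libraries numbered 4 (0.19, adjusted p = 0.111), without control TNFα replicate 4 alone (0.20, adjusted p = 0.0737) and without control vehicle replicate 3 (0.23, adjusted p = 0.0580). The call in mutant cells was lost without vehicle replicate 2 (0.25, adjusted p = 0.0577) or TNFα replicate 1 (0.23, adjusted p = 0.0936). *Ripk1*, the kinase that carries the ubiquitin chains, was at 58.5 to 63.4 CPM in control vehicle and 62.5 to 68.9 CPM in control TNFα libraries, with overlap and a log2 fold change of 0.11 (95% interval 0.00 to 0.23, adjusted p = 0.0998), or 0.13 (adjusted p = 0.0643) without the libraries numbered 4. In the mutant it was at 59.3 to 63.0 and 61.5 to 75.1 CPM. That change of 0.20 (SE 0.07, adjusted p = 0.0188) passed the test although the groups overlapped through TNFα replicate 4, and it was lost without vehicle replicate 4 (0.18, adjusted p = 0.0625), TNFα replicate 1 (0.19, adjusted p = 0.0506) or TNFα replicate 2 (0.16, adjusted p = 0.106). The exon overlaps named above concern both of these genes.

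The TRAF genes rose, *Traf1* most. *Traf1* was nearly silent with vehicle, at 1.33, 0.91, 0.84 and 8.69 CPM in control libraries (24, 12, 13 and 146 reads) and at 1.72, 0.72, 0.99 and 0.94 CPM in mutant libraries (25, 14, 19 and 41 reads). With TNFα it was at 47.0, 60.7, 55.9 and 38.5 CPM in control and at 42.9, 35.6, 38.2 and 42.2 CPM in mutant cells. Control vehicle replicate 4 held several times the *Traf1* of the other vehicle libraries and still lay far below every TNFα library. The log2 fold change in control cells was 4.05 (SE 0.62, adjusted p = 0.00203), a 16.6-fold increase. Without the 2 libraries numbered 4 it was 5.71 (SE 0.15, adjusted p = 5.07e-21), or 52.2-fold. In mutant cells it was 5.25 (SE 0.15, adjusted p = 2.81e-21), or 38.0-fold.

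*Traf2*, the ligase adaptor shared by both receptors, was at 23.3, 25.5, 23.7 and 27.4 CPM in control vehicle libraries and at 54.5, 58.6, 58.6 and 50.8 CPM with TNFα. In mutant cells it was at 25.6, 26.4, 24.6 and 24.8 CPM with vehicle and at 57.7, 54.4, 55.6 and 53.5 CPM with TNFα. All 8 TNFα libraries thus lay within a narrow band above all 8 vehicle libraries, and the increase was 2.24-fold in control (log2 1.16, SE 0.07, adjusted p = 5.65e-11) and 2.19-fold in mutant cells (log2 1.13, SE 0.07, adjusted p = 1.66e-13). Without the libraries numbered 4 the log2 fold change in control cells was 1.26. *Traf3*, the brake on NIK, was at 55.5, 56.3, 54.3 and 62.1 CPM in control vehicle and at 117, 111, 110 and 102 CPM in control TNFα libraries. *Notch2* mutant cells held 53.0, 53.4, 53.5 and 54.0 CPM with vehicle and 99.4, 110, 117 and 97.4 CPM with TNFα. Its log2 fold changes were 0.95 (SE 0.06, adjusted p = 6.95e-11) and 1.00 (SE 0.07, adjusted p = 1.17e-12), the latter just under the limit of 1 before rounding, and 1.03 in control cells without the libraries numbered 4.

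Both cellular inhibitors of apoptosis rose. *Birc2* was at 17.8, 21.0, 19.6 and 25.1 CPM in control vehicle libraries and at 58.4, 62.2, 61.0 and 49.8 CPM with TNFα, an increase of 2.78-fold (log2 1.48, SE 0.11, adjusted p = 3.41e-07). Mutant levels rose from 14.6, 20.1, 19.6 and 18.9 CPM to 51.5, 55.7, 54.7 and 46.9 CPM, or 2.87-fold (log2 1.52, SE 0.09, adjusted p = 3.62e-14). The control libraries numbered 4 were the highest vehicle and the lowest TNFα value, and without them the log2 fold change was 1.65. *Birc3* was at 7.24, 8.15, 9.84 and 22.0 CPM in control vehicle libraries and at 107, 107, 107 and 91.9 CPM with TNFα. With the *Notch2* mutation it was at 8.06, 7.39, 8.25 and 7.55 CPM with vehicle and at 108, 103, 105 and 99.3 CPM with TNFα. The control increase was 8.68-fold (log2 3.12, SE 0.36, adjusted p = 0.000492), and without the libraries numbered 4 it was 12.8-fold (log2 3.68, SE 0.08, adjusted p = 1.16e-24). The mutant increase was 13.4-fold (log2 3.75, SE 0.08, adjusted p = 4.18e-24).

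*Cflar*, the inhibitor of caspase-8, was at 51.0, 51.6, 52.7 and 64.5 CPM in control vehicle libraries and at 102, 97.1, 93.9 and 94.0 CPM with TNFα. In mutant cells it was at 43.8, 52.5, 54.7 and 54.4 CPM with vehicle and at 89.7, 93.9, 109 and 90.5 CPM with TNFα. The groups did not overlap, and the increase was 1.77-fold in control (log2 0.82, SE 0.07, adjusted p = 6.22e-08) and 1.87-fold in mutant cells (log2 0.90, SE 0.08, adjusted p = 2.19e-10). Without the libraries numbered 4 the log2 fold change in control cells was 0.92. For *Traf1*, *Traf2*, *Traf3*, *Birc2*, *Birc3* and *Cflar*, control vehicle replicate 4 was the highest library of its group, and its *Icam1* level moved the same way. Why that library differs was not tested.

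**Figure D2:**
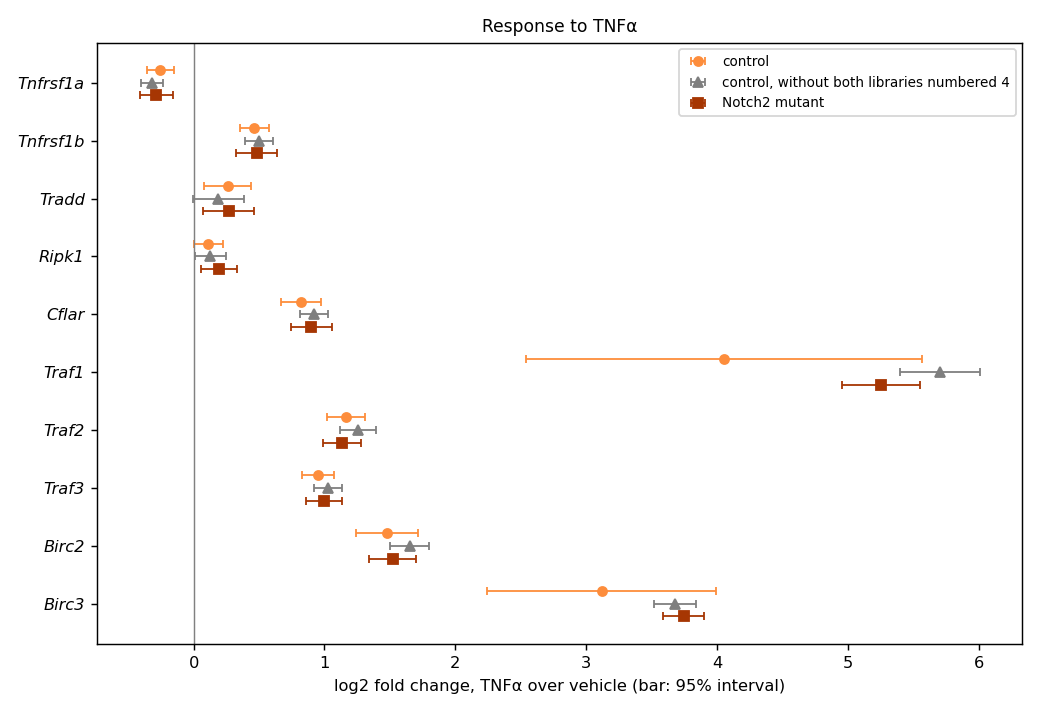
Log2 fold change of TNFα over vehicle (horizontal axis) for each of the 10 genes with its 95% interval, in control cells (circles), in control cells without both libraries numbered 4 (triangles) and in *Notch2* mutant cells (squares). *Traf1* lies at 4.05, 5.71 and 5.25 and *Birc3* at 3.12, 3.68 and 3.75, while *Tnfrsf1a* lies below 0 in all 3.

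The levels of different genes were compared per length as FPKM, which is CPM divided by the summed length of the exons of the gene in kilobases. *Tnfrsf1a* was the most abundant of the 10 in every group, at 66.4 ± 3.86 FPKM in control vehicle, 69.2 ± 3.04 in mutant vehicle, 55.4 ± 2.01 in control TNFα and 56.4 ± 3.71 in mutant TNFα libraries (SD, n = 4). *Tnfrsf1b* was second, at 13.7 ± 0.38, 14.4 ± 1.02, 18.8 ± 1.00 and 19.9 ± 2.36 FPKM. In control vehicle libraries *Traf3* (6.99), *Tradd* (6.61), *Ripk1* (5.59), *Cflar* (3.80), *Traf2* (3.25) and *Birc2* (3.20) followed. Within that series *Traf3* and *Tradd* did not differ beyond their spread, nor did *Cflar*, *Traf2* and *Birc2* from one neighbour to the next. *Birc3* (1.36 ± 0.79) and *Traf1* (0.33 ± 0.43) were last and overlapped in spread through control vehicle replicate 4. In mutant vehicle libraries, where *Birc3* was at 0.90 ± 0.05 and *Traf1* at 0.12 ± 0.05 FPKM, they were apart, as they were in control cells without replicate 4 (0.97 ± 0.15 and 0.12 ± 0.03 FPKM, n = 3). Without it *Cflar* (3.58 ± 0.06) was also apart from *Traf2* (3.15 ± 0.16).

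With TNFα the series closed up. *Birc3* moved from the ninth to the fourth place in both genotypes, at 11.9 ± 0.85 FPKM in control and 12.0 ± 0.40 FPKM in mutant cells, next to *Traf3* at 13.5 ± 0.75 and 13.0 ± 1.12 FPKM, from which it did not differ beyond the spread. *Birc2*, *Tradd*, *Traf2*, *Cflar* and *Ripk1* lay between 6.01 and 8.87 FPKM. *Traf1* was still last on this length, at 5.70 ± 1.11 FPKM in control and 4.48 ± 0.39 FPKM in mutant cells, but in control cells it did not differ from *Ripk1* (6.01 ± 0.24) beyond the spread. Without control TNFα replicate 4 *Ripk1* came last (6.01 ± 0.30), still within the spread of *Traf1* (6.15 ± 0.78, n = 3), and *Traf3* (13.8 ± 0.50) was apart from *Birc3* (12.3 ± 0.02). On the length of the canonical transcript, a choice made after the values were seen, *Tnfrsf1a* and *Tnfrsf1b* kept the first and second place in every group, *Tnfrsf1b* being within the spread of the next gene with TNFα, and *Birc3* and *Traf1* the last places with vehicle. With TNFα the last place then went to *Ripk1*, at 9.81 ± 0.40 FPKM in control and 10.3 ± 0.85 FPKM in mutant cells, not beyond the spread of *Tradd* (10.5 ± 0.64 and 10.9 ± 0.56), and *Traf1* was at 14.7 ± 2.85 and 11.6 ± 1.01 FPKM. The place of *Traf1* among the others with TNFα therefore rests on the transcript length used.

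**Figure D3:**
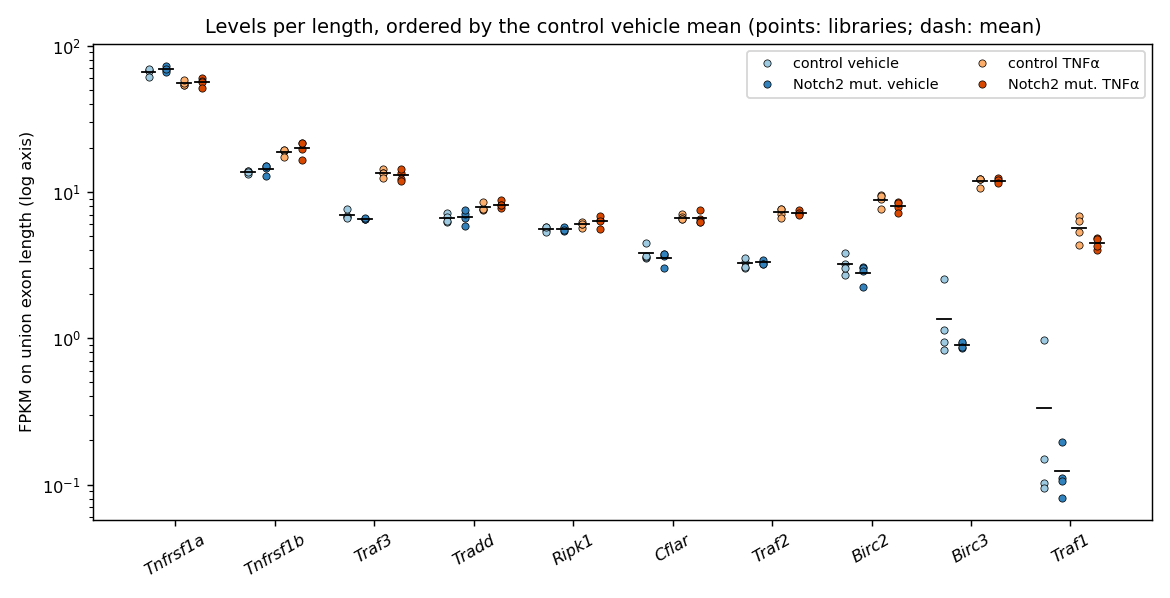
FPKM on union exon length (log axis) for the 10 genes, ordered by the control vehicle mean; points are libraries, dashes are means of 4. *Tnfrsf1a* is highest in every group, and *Birc3* and *Traf1* are lowest with vehicle; with TNFα *Birc3* is next to *Traf3*, and *Traf1* stays below the other genes in mutant cells and overlaps *Ripk1* in control cells.

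Ratios within a library do not depend on scaling between libraries. The FPKM of *Tnfrsf1b* relative to *Tnfrsf1a* was 0.207 ± 0.013 in control vehicle and 0.340 ± 0.028 in control TNFα libraries, and 0.209 ± 0.022 and 0.352 ± 0.030 in the mutant (SD, n = 4). All 8 TNFα libraries (0.298 to 0.382) were above all 8 vehicle libraries (0.177 to 0.228). The ratio of *Birc3* to *Birc2* was 0.409 ± 0.172 and 0.327 ± 0.061 with vehicle in control and mutant cells and 1.34 ± 0.045 and 1.50 ± 0.095 with TNFα. It lay between 0.277 and 0.660 in vehicle and between 1.29 and 1.59 in TNFα libraries, the highest vehicle value being that of control replicate 4. The ratios with TNFα were narrowly apart between genotypes, at 1.29 to 1.387 in control and 1.395 to 1.59 in mutant cells. The highest mutant ratio was that of the shallow TNFα replicate 4, and these ratios were not tested.

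The *Notch2* mutation was asked about in the same genes, first with vehicle. No gene of the 10 was called higher or lower by edgeR's quasi-likelihood test or by DESeq2, and none had an unadjusted p under 0.05, while 10.5% of all genes were called and 21.7% had an unadjusted p under 0.05. Apart from *Traf1* and *Birc3*, the log2 differences of mutant over control were between -0.18 (*Birc2*) and 0.08 (*Tnfrsf1b*), and their 95% intervals lay within -0.41 to 0.24. *Traf3* was the only gene whose groups did not overlap, at 53.0 to 54.0 CPM in mutant and 54.3 to 62.1 CPM in control cells (-0.09, 95% interval -0.21 to 0.03, adjusted p = 0.436), or 1 of 10 against 16.2% of all genes. *Traf1* had a difference of -1.49 (95% interval -3.74 to 0.76, adjusted p = 0.443) and *Birc3* one of -0.60 (95% interval -1.54 to 0.33, adjusted p = 0.461). Without control vehicle replicate 4 these became 0.01 (95% interval -0.69 to 0.72) and -0.11 (95% interval -0.37 to 0.15).

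With TNFα, again no gene of the 10 was called between genotypes by edgeR's quasi-likelihood test (9.94% of all genes were called), and 1 had an unadjusted p under 0.05 (21.4% of all genes). This was *Traf1*, at 42.9, 35.6, 38.2 and 42.2 CPM in mutant and 47.0, 60.7, 55.9 and 38.5 CPM in control cells. Each of the first 3 control libraries was above all 4 mutant libraries, and control replicate 4 lay among them. The log2 difference was -0.35 (95% interval -0.66 to -0.05, unadjusted p = 0.0285, adjusted p = 0.166). It was called by DESeq2 (-0.34, adjusted p = 0.0487), by edgeR with no filter beyond 1 count (-0.35, adjusted p = 0.000143) and by edgeR without control TNFα replicate 4 (-0.48, 95% interval -0.66 to -0.31, adjusted p = 0.000298). With the other alternatives its adjusted p was between 0.143 and 0.640. For the other 9 genes the log2 differences lay between -0.12 (*Birc2*) and 0.11 (*Tnfrsf1b*), with 95% intervals within -0.27 to 0.25. Without control TNFα replicate 4 that of *Birc2* was -0.20 (95% interval -0.34 to -0.06, adjusted p = 0.0509 by edgeR). Without mutant TNFα replicate 4, *Tnfrsf1b* had 0.16 (0.04 to 0.28, adjusted p = 0.0958) and *Ripk1* 0.12 (0.003 to 0.25, adjusted p = 0.221) by edgeR. None of these was called. No groups were apart among the 10, against 14.8% of all genes.

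The difference between the responses of the 2 genotypes was tested in 1 model over all 16 libraries. None of the 10 genes was called by edgeR's quasi-likelihood test or by DESeq2, and none had an unadjusted p under 0.05 (0.474% of all genes were called and 8.71% had an unadjusted p under 0.05). Apart from *Traf1* and *Birc3*, the response of mutant cells minus that of control cells was between -0.03 (*Tnfrsf1a*) and 0.09 (*Ripk1*) on the log2 scale, with 95% intervals within -0.25 to 0.33. For *Traf1* it was 1.20 (95% interval -0.57 to 2.96, adjusted p = 0.740) and for *Birc3* 0.63 (95% interval -0.14 to 1.40, adjusted p = 0.681). Without both control libraries numbered 4 the value for *Traf1* was -0.45 (95% interval -1.06 to 0.16), of the opposite sign, and that for *Birc3* was 0.07 (95% interval -0.16 to 0.31). The sign for *Traf1* changed on leaving out control vehicle replicate 4 alone (-0.36, 95% interval -1.26 to 0.55).

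**Figure D4:**
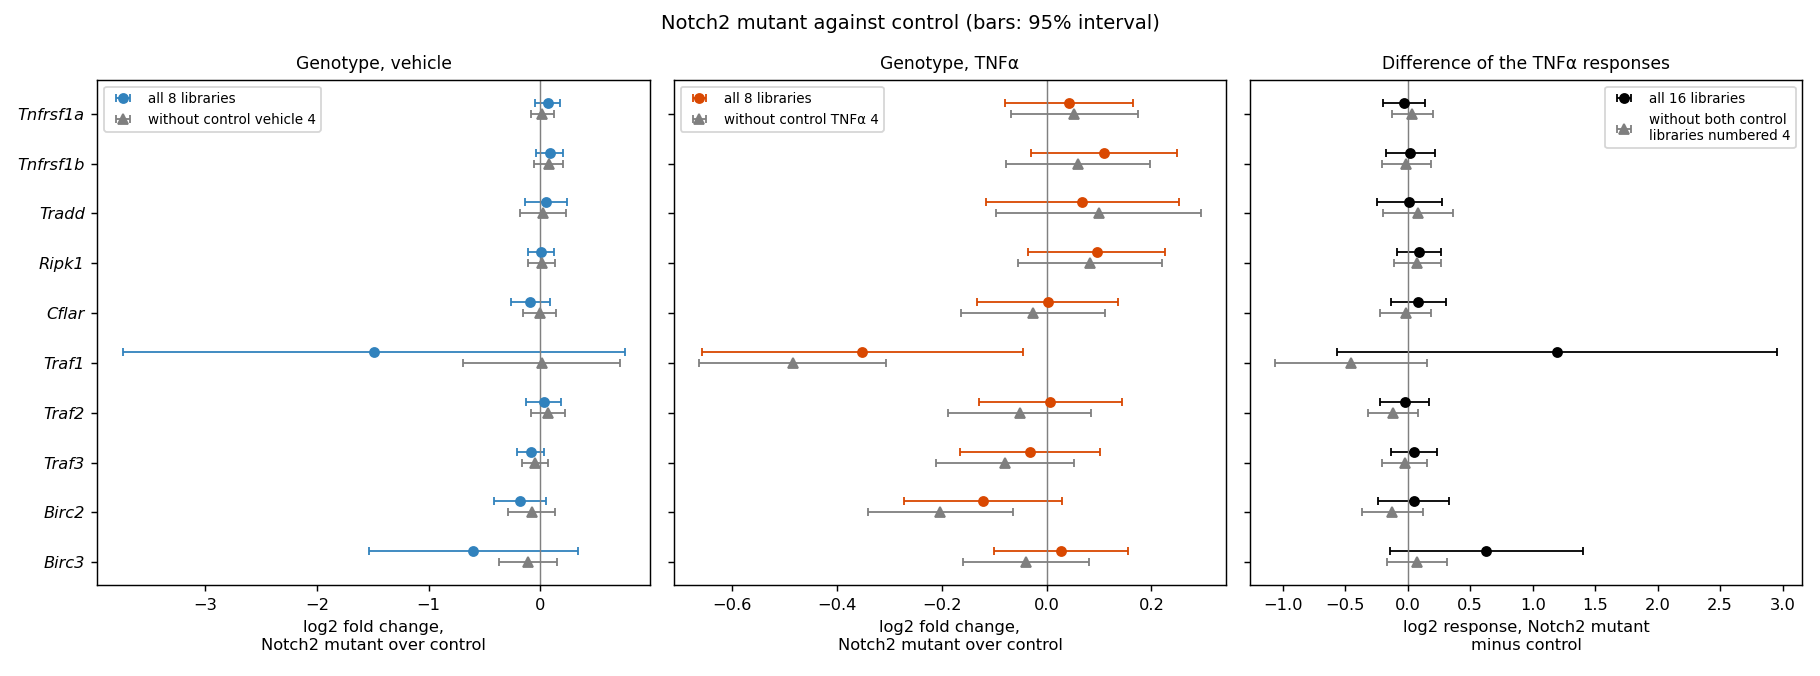
Log2 differences of *Notch2* mutant over control with vehicle (left), with TNFα (middle) and between the TNFα responses (right), with 95% intervals; each panel has its own scale. Grey triangles leave out the named control libraries numbered 4, and with them *Traf1* moves from -1.49 to 0.01, from -0.35 to -0.48 and from 1.20 to -0.45.

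Levels in these cultures are those of a mixture, in which fewer cells of a type and less RNA per cell cannot be told apart. Summed CPM of 14 macrophage markers was 71.4 to 77.9 in control vehicle and 132 to 153 in mutant vehicle libraries, and 85.8 to 100.2 in control TNFα and 178 to 202 in mutant TNFα libraries. *Cd163* was at 0 in all control vehicle libraries, and *Lyz2* had the most reads of the list in every library. Of these markers 10 of 14 tested were higher in mutant cells with vehicle and 11 of 13 with TNFα. Over all genes 6.19% were higher and 4.35% lower in mutant cells with vehicle, and 5.63% and 4.31% with TNFα. All 11 chondrocyte markers were lower in mutant cells under both treatments. Summed levels of 6 endothelial markers were 6.85 to 9.11, 15.98 to 20.6, 9.15 to 12.1 and 17.7 to 24.0 CPM in the order control vehicle, mutant vehicle, control TNFα and mutant TNFα, with 4 and 3 of 6 higher in mutant cells. Most of this sum was *Tek*, at means of 5.68, 12.4, 7.87 and 15.3 CPM in the same order. Summed levels of 7 fibroblast and perichondrium markers were 31529 to 34486, 36002 to 38679, 30878 to 33903 and 34563 to 42469 CPM, with 4 and 5 of 7 higher and 1 lower. *Col1a1*, *Col1a2* and *Col3a1* made up nearly all of that sum. Summed levels of 7 lymphocyte markers were at most 0.53 CPM in any library, with *Cd3e*, *Cd3g*, *Cd8a* and *Ms4a1* at 0 in all 16. The part of these other cells in the genotype differences of the receptors and adaptors, and of the other pathway genes below, was not tested. With TNFα against vehicle, 9 of 11 chondrocyte markers fell in either genotype. Of the macrophage markers tested, 4 of 12 rose and 1 fell in control cells, and 9 of 14 rose and 1 fell in mutant cells. Over all genes 23.3% rose and 20.9% fell in control cells, and 22.6% rose and 21.9% fell in mutant cells.

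For the 4 genes past the fold limit in both genotypes, the genes with the most similar log2 CPM over the 16 libraries were listed, among 13431 genes and as a description only. They were *Oas3*, *Irf7* and *Mx2* for *Traf1* (Pearson's r = 0.997, 0.997 and 0.996), and *Tapbp*, *Ripk2* and *Fas* for *Birc3* (0.998 for each). For *Traf2* they were *Stx6*, *Ptges* and *Plaat3* (0.996, 0.996 and 0.995), and for *Birc2* they were *Tor1aip1*, *Tor1aip2* and *Tifa* (0.995, 0.994 and 0.993). These points share the step between vehicle and TNFα, which alone gives high values.

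Of 67 other genes of the pathway, 63 were tested in control cells, of which 36 rose and 6 fell, and 64 in mutant cells, of which 36 rose and 7 fell. Over all genes 23.3% rose and 20.9% fell in control cells, and 22.6% and 21.9% in mutant cells, and the counts of each list below stand beside these shares. The lists are short, and nothing is read from a count near them. Their median log2 fold changes were 0.50 and 0.41. Without both control libraries numbered 4, 37 rose and 6 fell in control cells, and each of these genes named for its response in control cells was still called in its direction. All 4 ligand and sheddase genes that were tested rose in both genotypes, among them *Tnf* itself (log2 fold change 4.38 in control and 5.10 in mutant cells, from 12 and 20 reads over the 4 vehicle libraries), lymphotoxin β (*Ltb*, 3.46 and 3.55) and *Adam17*, which cleaves TNFα from the membrane (1.58 and 1.65). *Ltb* had only 4 reads over the control vehicle and 2 over the mutant vehicle libraries, and 52 and 16 with TNFα. Without both control libraries numbered 4 the change of *Tnf* in control cells was 6.29. Of 11 genes of the linear ubiquitin ligase and of ubiquitin editing, 10 rose in control and 9 in mutant cells and none fell. *Tnfaip3*, which encodes the ubiquitin-editing inhibitor A20, rose by 3.77 and 5.18, and its partner *Tnip1* by 2.48 and 3.16. In control cells without the libraries numbered 4, *Tnfaip3* rose by 4.93. Of 12 genes of the TAK1, IKK and TBK1 kinase complexes, 7 rose in each genotype, while 2 fell in control and 1 in mutant cells. *Ikbke*, an IKK-related kinase, rose by 2.68 and 2.90, *Azi2*, an adaptor of TBK1, by 0.79 and 0.63 and *Tbk1* by 0.67 and 0.76. *Chuk*, which encodes IKKα, fell by 0.52 and 0.49. *Tab2* fell in control cells (-0.15, adjusted p = 0.0136), a call that was lost without control TNFα replicate 2 (adjusted p = 0.0664).

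In the death branch 4 of 9 genes rose and 1 fell in control cells, and 5 rose and 1 fell in mutant cells. *Bid*, which links caspase-8 to mitochondria, had log2 fold changes of 2.75 and 2.99, and *Mlkl*, the effector of necroptosis, of 2.32 and 2.51. *Ripk3*, the kinase that activates MLKL, fell by 0.48 and 0.43. Of 5 other TRAF genes, 2 rose in control and 3 in mutant cells, *Traf3ip2* having changes of 0.53 and 0.72 and *Traf4* of 0.28 and 0.51. Of 22 other TNF receptor superfamily genes tested in control cells 9 rose and 3 fell, and of 23 tested in mutant cells 8 rose and 5 fell. *Tnfrsf9*, a costimulatory receptor, had log2 fold changes of 4.90 and 5.29, *Cd40* of 4.40 and 4.34 and *Tnfrsf14* of 3.24 and 4.36. Without the control libraries numbered 4 these were 6.22, 5.52 and 4.22 in control cells. Over the 4 vehicle libraries *Tnfrsf9* had only 14 reads in control and 8 in mutant cells, and *Cd40* only 9 and 13. *Relt* fell by 1.43 and 1.90, and *Tnfrsf12a*, the receptor of TWEAK, by 1.41 and 1.71.

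**Figure D5:**
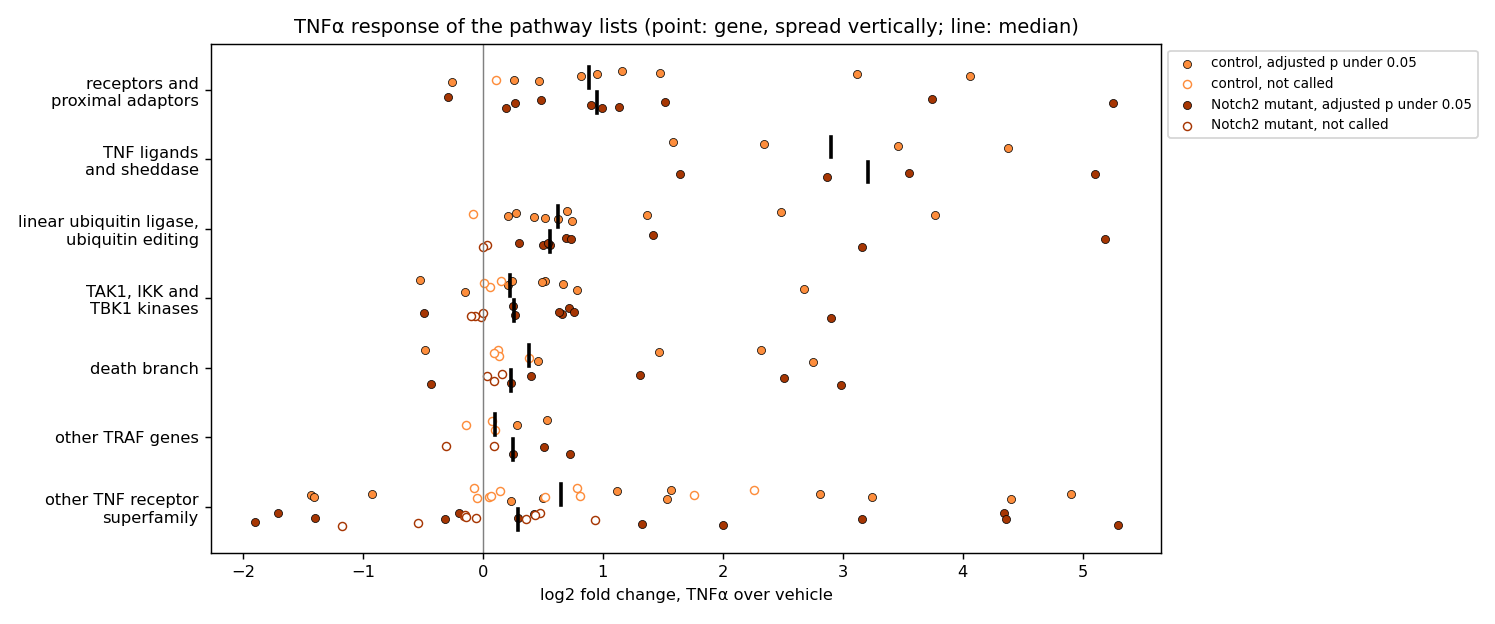
Log2 fold change of TNFα over vehicle (horizontal axis) for the 10 receptor and adaptor genes and for 6 lists of other pathway genes, in control (orange) and mutant cells (brown); filled points were called, open points were not, and lines are medians. The ligand list has the highest median, at 2.90 in control and 3.21 in mutant cells, and the other TRAF genes have medians of 0.10 and 0.25. In the ligand list *Tnf* and *Ltb* had few reads with vehicle.

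Between genotypes, 3 of 64 other pathway genes tested were lower in mutant cells with vehicle and none was higher, while 10.5% of all genes were called. *Tnfrsf11b*, which encodes the decoy receptor osteoprotegerin, had a log2 difference of -0.80 (adjusted p = 6.73e-11), *Rhbdf2*, a partner of ADAM17, of -0.56 (adjusted p = 0.0372) and *Tnfrsf10b*, a death receptor, of -0.21 (adjusted p = 0.0220). The call of *Rhbdf2* was lost without control replicate 1 (adjusted p = 0.0688) or mutant replicate 1 (0.126), 2 (0.111) or 4 (0.105), and that of *Tnfrsf10b* without control replicate 3 (0.105) or mutant replicate 2 (0.0793) or 3 (0.0710). With TNFα 3 of 64 were higher and 3 lower, a share near the 9.94% of all genes called, so that the count is no result about these genes. The higher ones were *Tnf* (0.85, adjusted p = 0.000331), *Tnfaip3* (0.39, adjusted p = 0.000612) and *Tnip1* (0.37, adjusted p = 0.000928). The lower ones were *Tnfrsf11b* (-1.27, adjusted p = 3.01e-13), *Tnfrsf25* (-1.07, adjusted p = 0.00312) and *Tnfrsf9* (-0.94, adjusted p = 0.000267). Macrophage markers were higher and chondrocyte markers lower in mutant cells, and the part of cell types in these differences was not tested. The response to TNFα was called as different between genotypes for 1 of 66 genes, *Tnfrsf11b* (-0.47, adjusted p = 0.00383, edgeR, against 0.474% of all genes), and for the same number without the control libraries numbered 4. Each library entered 1 genotype comparison and 1 TNFα comparison.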

How the data were processed

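RNA was sequenced as stranded, paired-end mRNA libraries from 16 chondrocyte cultures. The deposited values are raw counts of reads per gene. The study's methods give trimming with Trimmomatic, HISAT2 on GRCm39 and htseq-count, whereas the submitters' processing notes name HISAT2 2.1.0, SAMtools 1.9, HTSeq and GRCm38. The values are matched by Ensembl identifier, and positions are those of GENCODE M39 on GRCm39, which held all but 665 of 55414 identifiers (0.018% of counts). The 5 rows that name no gene (8.81 to 12.1% of each file) were left out.

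Counts were tested with edgeR 4.0.16 (robust quasi-likelihood test, TMM scaling, genes with at least 10 counts over the compared libraries, Benjamini-Hochberg adjustment over all genes tested), within the 8 libraries of each comparison and over all 16 for the difference of responses. The study's methods name covariates without saying which, and none was used. CPM per library used TMM scaling over all 16 libraries. Alternatives were DESeq2 1.42.0, RLE scaling, other filters and thresholds, all libraries in 1 fit, a replicate block, and libraries left out. Biological variation was 7.65 to 9.98% in the 5 fits, and replicates differed by more than sampling noise (chi-square per degree of freedom 2.08 to 14.6). The 10 genes and all lists were chosen with earlier results of these data known. Named from each list were up to 2 genes with the largest rises and 2 with the largest falls among those called with groups apart. *Adam17*, *Rhbdf2* and *Tnfrsf9* between genotypes were named after their values were seen. Protein sequences were not used here.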

Additional observations from a re-analysis of the deposited data

Results flagged for a closer look

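Of 40 groups of 4 libraries, 4 for each of the 10 genes, 4 held a library whose gap to its nearest neighbour, relative to the range of the group, exceeded Dixon's 95% critical value, where chance gives about 1 in 20. All 4 were control libraries numbered 4. Control vehicle replicate 4 was the highest of its group for *Traf1*, at 8.69 CPM, and for *Cflar*, at 64.5 CPM. Control TNFα replicate 4 was the lowest of its group for *Birc3*, at 91.9 CPM, and the highest for *Tradd*, at 19.8 CPM. For *Traf1*, *Cflar* and *Birc3* these values lay toward the other treatment, and for *Tradd* away from it.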

How the results depend on the processing

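Of 880 alternative values of the 50 log2 fold changes of the 10 genes, 802 kept their direction and their side of the threshold, 19 lost a call (11 of them by the fold limit), 4 gained one, and 55 changed sign, none of the latter in a TNFα response. The alternatives of an adjusted p under 0.1 and of the fold limit reuse the main estimate, so that only the call could change there. Asking for a log2 fold change of 1 or more left 4 higher and 0 lower of the 10 genes in each TNFα comparison, 18 higher and 2 lower of the other pathway genes in control and 17 and 3 in mutant cells, 0 lower between genotypes with vehicle and 0 higher with TNFα. Of the 10 genes, 1 (*Traf1*) was lower in mutant cells with TNFα by DESeq2, with no filter beyond 1 count and without control TNFα replicate 4. For the other pathway genes with vehicle, 0 were higher in the mutant, but 1 by DESeq2, 2 with no filter, 1 in the fit of all 16 libraries, 2 with the replicate block, 3 at an adjusted p under 0.1 and 0 to 2 with 1 library left out. Those lower, 3, became 6 with no filter and were as few as 1 with 1 library left out. With TNFα, those higher fell from 3 to 1 in the fit of all 16 libraries and those lower rose from 3 to 5 with no filter. With no filter 1 other pathway gene had a larger response in the mutant.

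Signs changed between genotypes with vehicle for *Ripk1* (DESeq2 -0.0034, RLE -0.0034, filterByExpr -6.5e-05, no filter -0.00079, all 16 libraries -0.0033, and -0.019 to 0.018 with 1 library left out). With 1 library left out they also changed for *Tradd* (-0.020 to 0.10), *Traf1* (-1.80 to 0.014) and *Traf2* (-0.0088 to 0.070). With TNFα they changed for *Traf2* (all 16 libraries -0.0032, replicate block -0.00075, 1 library left out -0.051 to 0.023), *Cflar* (-0.0093, -0.0043, and -0.075 to 0.038), *Traf3* (-0.092 to 0.0035) and *Birc3* (-0.039 to 0.045). For the difference of responses they changed without both control libraries numbered 4 for *Tnfrsf1a* (0.038), *Tnfrsf1b* (-0.011), *Traf1* (-0.45), *Traf3* (-0.025), *Birc2* (-0.12) and *Cflar* (-0.015). With 1 library left out those differences were -0.067 to 0.0094 for *Tnfrsf1a*, -0.025 to 0.083 for *Tnfrsf1b*, -0.043 to 0.077 for *Tradd* (-0.0024 with no filter), -0.36 to 1.50 for *Traf1*, -0.091 to 0.0015 for *Traf2*, -0.0091 to 0.082 for *Traf3*, -0.073 to 0.11 for *Birc2* and -0.018 to 0.12 for *Cflar*. None of these was called under any of these settings, and the causes were not tested.

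No pairing by replicate number was seen: deviations of same-numbered libraries correlated at -0.051 to 0.041 over all genes with at least 10 counts. Genes with few reads weaken such a correlation, so that pairing is not excluded. The replicate block changed no call of the 10 genes. On canonical transcript length, chosen after seeing the data, the ratio of *Tnfrsf1b* to *Tnfrsf1a* was 0.144 and 0.145 with vehicle and 0.237 and 0.245 with TNFα in control and mutant cells, and that of *Birc3* to *Birc2* was 0.251 in mutant vehicle, 1.03 in control TNFα and 1.15 in mutant TNFα libraries. Depth limited *Traf1* with vehicle, at 12 to 41 reads in 7 of 8 libraries.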
